A study of Homo sapiens with 8 samples.

Results

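The 9 laminin chain genes described here (LAMA1, LAMA2, LAMA3, LAMA4, LAMA5, LAMB1, LAMB2, LAMB3 and LAMC1) were chosen by name, as genes for laminin chains, from a table of 58735 genes, with earlier results of these data known, and all 9 passed the filter on low counts that left 15647 genes for testing. The cells were SRA01/04, a human lens epithelial line immortalised with a viral large T antigen. The 4 shControl libraries (genotype WT) came from cells carrying a control hairpin. The 4 shSmurf1 libraries (genotype Smurf1 knockdown) came from cells in which a hairpin targeted SMURF1, a ubiquitin ligase of the TGF-β and BMP pathways. Both groups had been given 20 ng/ml TGF-β2 for 48 h, so every value below is from cells under TGF-β2. The labels call the replicates biological and do not say what was grown separately, so each p-value measures the spread among these libraries, which may be partly technical.

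Laminins are cross-shaped proteins of basement membranes, each built from an α, a β and a γ chain that are joined through a long coiled coil before secretion. The short arms of the chains join laminins into a sheet, and globular domains at the end of the α chain bind integrins and dystroglycan on the cell, so the α chain largely sets which receptors a laminin uses. In the eye, lens epithelial cells lay down the lens capsule, a thick basement membrane rich in laminin and type IV collagen.

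SMURF1 was lower in each shSmurf1 library (50.4 to 51.4 CPM, counts scaled to one common library total) than in each shControl library (85.8 to 93.3 CPM), in the direction of the labels. SMURF1 fell by 0.80 on the log2 scale (edgeR adjusted p = 2.86e-09). Library totals ranged from 14688651 to 17030394 counts. One library, shSmurf1 replicate 3, stood apart: its chi-square per degree of freedom against the other shSmurf1 libraries was 10.0 to 13.3, where 1 is counting noise alone, against 2.60 to 4.12 for all other replicate pairs. Its difference from the other shSmurf1 libraries followed the GC content of the transcripts, with a median log2 difference of 0.17 over genes under 45% GC and −0.30 over genes of at least 60% GC. Against shControl, over the same genes, the other 3 shSmurf1 libraries lay at −0.10 and 0.19, and replicate 3 at 0.07 and −0.11. Replicate 3 was thus nearer to shControl in GC trend. The trend of the other 3 coincides with the group, and its cause was not tested. Results that rest on replicate 3 are given with and without it. Of 15 lens epithelial markers, 5 had enough counts to be tested. In shSmurf1 2 of these were lower and 0 higher (edgeR adjusted p under 0.05), beside 12.2% and 10.3% of all genes tested. GJA1 stood at 56.1% of control (log2 fold change −0.83, edgeR adjusted p = 1.28e-08) and SIX3 at 77.5% (−0.37, edgeR adjusted p = 0.0106). The other 3, PAX6, BFSP1 and CDH2, had edgeR adjusted p values above 0.05. PAX6, a master regulator of eye development, was at 33.3 CPM in shControl and 34.0 CPM in shSmurf1, whereas FOXE3, PITX3, SOX2, MAF, PROX1, CRYAA, MIP and CDH1 had at most 6 counts in any library, so the labelled cell type rests on few of its defining markers. The lens markers summed to 459 to 467 CPM in shControl and 370 to 415 CPM in shSmurf1. Most of that sum was CDH2, which averaged 328 CPM in shControl and 299 CPM in shSmurf1. In the same order of groups, the 9 fibroblast or mesenchymal markers summed to 4574 to 4784 and 3840 to 4303 CPM. Of 8 tested, PDGFRB, LUM and COL3A1 rose and VIM and COL1A2 fell, beside 10.3% of all genes tested higher and 12.2% lower. The 5 endothelial markers summed to 2.33 to 3.46 and 1.18 to 3.27 CPM. The 5 leukocyte markers, nearly all of it CD14, summed to 6.27 to 8.53 and 11.6 to 14.4 CPM, and the 4 melanocyte markers to 2.98 to 4.61 and 2.50 to 3.65 CPM. The part of these shifts in the results below was not tested, and in bulk RNA fewer cells of a type and less RNA per cell cannot be told apart.

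The laminin genes moved in both directions. LAMA4, LAMB3, LAMA5 and LAMA3 rose in shSmurf1, LAMA1 and LAMB1 fell, and LAMA2, LAMB2 and LAMC1 did not pass the test (edgeR quasi-likelihood test over all genes, Benjamini-Hochberg adjusted p under 0.05). Of the 9 genes 6 therefore passed, 4 higher and 2 lower. Of all genes tested 22.5% passed, 10.3% higher and 12.2% lower, and of the 6535 genes whose average log2 CPM reached 5, where 8 of the 9 laminin genes lie, 30.3% passed. Without shSmurf1 replicate 3 the same 6 laminin genes passed, beside 33.7% of 15878 genes tested. In 5 of the 9 the libraries of the groups did not overlap, as in 23.7% of all genes tested. The median log2 fold change of the 9 was −0.022, beside 0.007 for all genes.

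**Figure D1:**
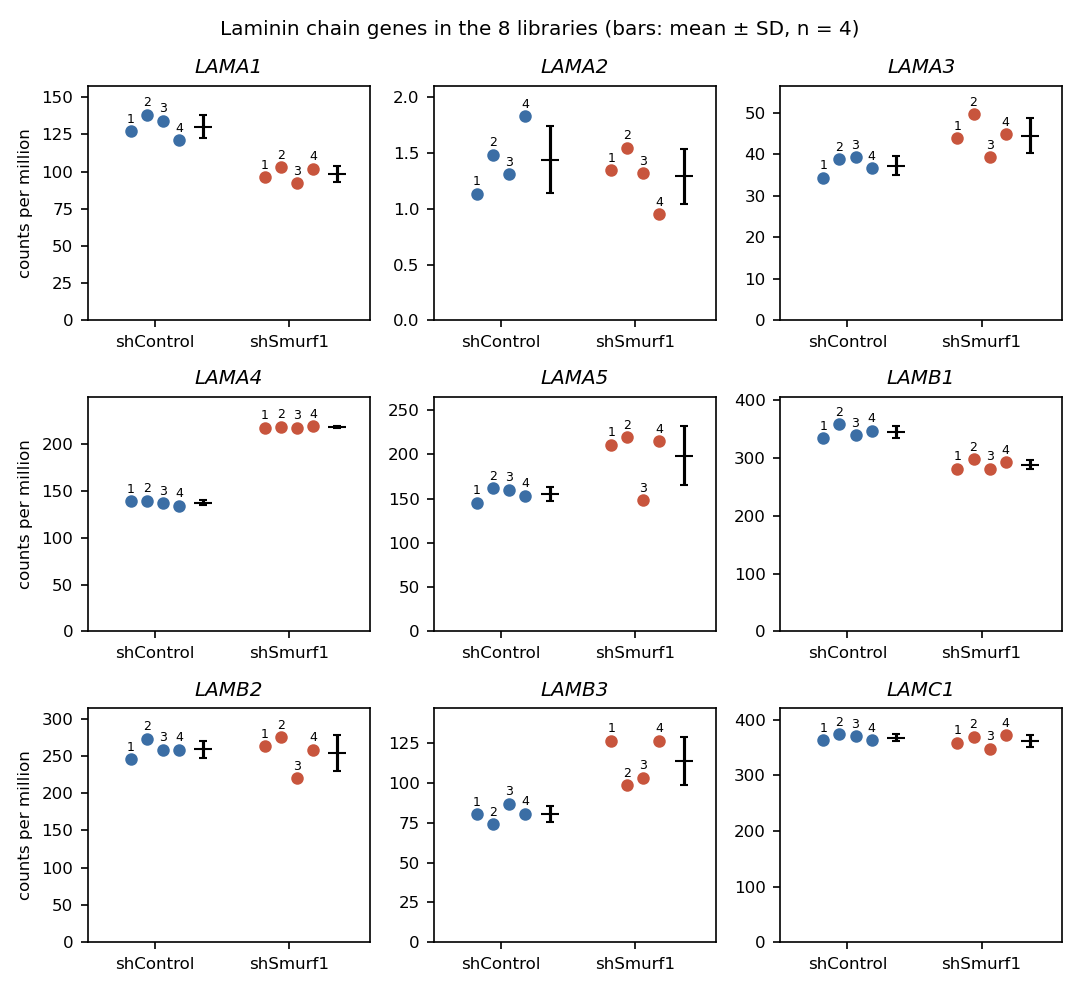
CPM of each laminin chain gene (vertical axis, from 0) in the 4 shControl and 4 shSmurf1 libraries, with each point numbered by replicate and black bars for the mean ± SD (n = 4). LAMA4 lies between 217 and 219 CPM in every shSmurf1 library and between 134 and 139 CPM in every shControl library, and shSmurf1 replicate 3 is the low point of LAMA5 at 148 CPM.

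Promoter sequences of 4 genes that passed are shown first, because 2 of them, LAMA3 and LAMB3, code for chains of the same laminin, which anchors epithelia through hemidesmosomes, and both rose, while LAMA4 had the largest rise and LAMB1 fell. Each runs from 250 bases before to 50 after a RefSeq start site on GRCh38.p14, and capitals mark 2 motifs found on either strand, the AP-1 site (TGACTCA or its reverse complement TGAGTCA) and the GC box (GGGCGG or CCGCCC). The LAMA3 window is chr18:23872770-23873069 on the plus strand, the LAMB3 window chr1:209651325-209651624 on the minus strand, the LAMA4 window chr6:112254518-112254817 on the minus strand and the LAMB1 window chr7:108003112-108003411 on the minus strand.
LAMA3: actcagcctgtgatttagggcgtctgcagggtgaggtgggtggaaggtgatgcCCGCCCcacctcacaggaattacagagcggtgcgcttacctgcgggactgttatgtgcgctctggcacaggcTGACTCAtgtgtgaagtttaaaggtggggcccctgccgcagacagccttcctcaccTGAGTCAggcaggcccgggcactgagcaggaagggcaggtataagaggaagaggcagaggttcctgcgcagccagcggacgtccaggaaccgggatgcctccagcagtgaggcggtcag
LAMB3: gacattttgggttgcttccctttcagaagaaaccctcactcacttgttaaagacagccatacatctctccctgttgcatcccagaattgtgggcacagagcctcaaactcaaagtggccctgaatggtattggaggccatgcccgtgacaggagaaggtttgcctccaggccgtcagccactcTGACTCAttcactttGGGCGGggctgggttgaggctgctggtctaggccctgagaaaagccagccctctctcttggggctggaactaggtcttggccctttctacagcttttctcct
LAMA4: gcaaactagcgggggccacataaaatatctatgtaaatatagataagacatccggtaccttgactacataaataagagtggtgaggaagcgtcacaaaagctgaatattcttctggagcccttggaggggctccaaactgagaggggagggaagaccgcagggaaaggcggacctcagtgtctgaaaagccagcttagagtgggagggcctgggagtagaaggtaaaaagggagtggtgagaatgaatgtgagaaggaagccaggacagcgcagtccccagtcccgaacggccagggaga
LAMB1: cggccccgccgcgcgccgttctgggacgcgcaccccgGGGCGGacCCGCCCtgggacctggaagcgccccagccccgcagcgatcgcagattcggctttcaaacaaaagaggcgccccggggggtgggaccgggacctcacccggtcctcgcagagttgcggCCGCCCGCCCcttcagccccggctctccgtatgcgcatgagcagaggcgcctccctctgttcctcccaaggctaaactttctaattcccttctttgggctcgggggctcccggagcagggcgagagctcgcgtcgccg

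The LAMA3 window held 2 AP-1 sites and 1 GC box, and the LAMB3 window 1 of each. The LAMA4 window held neither, and the LAMB1 window held 4 GC boxes, of which a pair overlaps, and no AP-1 site. RefSeq windows were matched for 8 of the 9 genes, 10 windows in all, and AP-1 sites were found in those of LAMA3 and LAMB3, beside 4.95% of 35116 RefSeq promoter windows of this length. LAMB3 has 3 windows, and the one shown was picked because it holds the site. GC boxes were found in 6 of the 8 genes, beside 44.95% of all windows. For each motif a gene was counted with a match in any of its windows, whereas the percentages are of single windows. Of the other sequences searched on both strands, the SMAD box CAGAC was in 5 of the 8 genes (45.3% of all windows) and the TEAD sequence GGAATG in 1, LAMA2 (14.0%). The SMAD palindrome GTCTAGAC, a serum response factor CArG box, the hypoxia sequence ACGTG, an NF-kB site and the TATA sequence TATAAA were in none of the 8, beside 0.202%, 0.0342%, 21.4%, 0.191% and 11.5% of all windows. These are matches of letters, and no binding was measured. The LAMA3 window lies 183577 bases inside the gene as GENCODE draws it, at the start of the short α3A transcripts, and counts per gene do not tell the short and long LAMA3 transcripts apart.

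LAMA4 codes for the α4 chain, a short-armed chain of vessel walls and mesenchymal tissue (ENSG00000112769, GRCh38 chromosome 6, 112108760 to 112254939, minus strand). It was at 139, 139, 137 and 134 CPM in shControl replicates 1 to 4 and at 217, 218, 217 and 219 CPM in shSmurf1 replicates 1 to 4. The groups were far apart, and the shSmurf1 libraries, replicate 3 included, lay within a few CPM of each other. The log2 fold change was 0.67 ± 0.046 (SE; 95% interval 0.57 to 0.76, edgeR adjusted p = 2.86e-09), a level of 159% of control. LAMA4 passed in all 18 other settings tried, with log2 fold changes from 0.66 to 0.71. Its GC content was 46.6%, and genes of 45 to 50% GC had a median log2 difference of 0.05 between shSmurf1 replicate 3 and the other shSmurf1 libraries, where LAMA4 had −0.01.

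LAMA5 codes for the α5 chain, the widespread α chain of adult epithelial basement membranes (ENSG00000130702, chromosome 20, 62307955 to 62367312, minus strand). It was at 145, 162, 160 and 153 CPM in shControl replicates 1 to 4 and at 211, 220, 148 and 215 CPM in shSmurf1 replicates 1 to 4. Of the shSmurf1 libraries, 3 lay above every shControl library and replicate 3 lay among the shControl values. LAMA5 passed as higher with all libraries (0.36 ± 0.088, edgeR adjusted p = 0.00590) and lay at 0.47 without shSmurf1 replicate 3 (edgeR adjusted p = 3.02e-10). Its transcript is GC-rich (66.4%), and after removal of each library's trend with GC content the log2 fold change was 0.21 with all libraries and 0.25 without shSmurf1 replicate 3 (edgeR adjusted p = 0.000570 and 1.80e-05). Genes of at least 60% GC had a median log2 difference of 0.19 between the other 3 shSmurf1 libraries and shControl, where LAMA5 had 0.47. Its exons share 244 bases with ADRM1 on the opposite strand, at 147 CPM in shControl and 134 CPM in shSmurf1 (−0.13, edgeR adjusted p = 0.220); the library protocol describes no strand marking.

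LAMA3 codes for the α3 chain of hemidesmosomal laminin (ENSG00000053747, chromosome 18, 23689443 to 23956222, plus strand). It was at 34.4, 38.8, 39.3 and 36.6 CPM in shControl replicates 1 to 4 and at 43.9, 49.6, 39.3 and 44.8 CPM in shSmurf1 replicates 1 to 4. The groups touch: the lowest shSmurf1 library, replicate 3 at 39.31 CPM, lay just above the highest shControl library, at 39.29 CPM. LAMA3 passed (0.25 ± 0.076, edgeR adjusted p = 0.0209), but not without shControl replicate 1 (adjusted p = 0.0901), shControl replicate 4 (0.0643) or shSmurf1 replicate 2 (0.0975), with log2 fold changes of 0.21, 0.24 and 0.20 in those fits.

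LAMA1 codes for the α1 chain, the first α chain of the embryo and a chain of lens capsule laminin (ENSG00000101680, chromosome 18, 6941744 to 7117814, minus strand). It was at 127, 138, 134 and 121 CPM in shControl replicates 1 to 4 and at 96.3, 103, 92.3 and 102 CPM in shSmurf1 replicates 1 to 4. Every shSmurf1 library lay below every shControl library. LAMA1 fell to 75.5% of control (−0.41 ± 0.057, edgeR adjusted p = 3.27e-05) and passed in all 18 other settings, from −0.44 to −0.37.

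LAMA2 codes for the α2 chain of muscle and nerve basement membranes (ENSG00000196569, chromosome 6, 128883141 to 129516569, plus strand). It had 16 to 29 counts per library, which is 1.13 to 1.83 CPM in shControl and 0.954 to 1.55 CPM in shSmurf1, with overlapping groups. It did not pass (−0.16 ± 0.28, edgeR adjusted p = 0.740), and at this depth the 95% interval of its log2 fold change reached from −0.75 to 0.43.

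Among the β chains, LAMB3 codes for β3, the partner of α3 in hemidesmosomal laminin (ENSG00000196878, chromosome 1, 209614870 to 209652466, minus strand). It was at 80.2, 74.2, 86.9 and 80.6 CPM in shControl replicates 1 to 4 and at 126, 98.3, 103 and 126 CPM in shSmurf1 replicates 1 to 4. The groups did not overlap, and the shSmurf1 libraries fell into a higher pair, replicates 1 and 4, and a lower pair, replicates 2 and 3. LAMB3 passed in all 18 other settings, with log2 fold changes from 0.42 to 0.56 beside 0.50 ± 0.077 with all libraries (edgeR adjusted p = 9.18e-05).

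LAMB1 codes for β1, the common β chain of developing and many adult basement membranes (ENSG00000091136, chromosome 7, 107923799 to 108003255, minus strand). It was at 335, 359, 340 and 348 CPM in shControl replicates 1 to 4 and at 282, 298, 282 and 293 CPM in shSmurf1 replicates 1 to 4. Every shSmurf1 library lay below every shControl library, and LAMB1 fell to 83.7% of control (−0.26 ± 0.046, edgeR adjusted p = 0.000341). It passed in all 18 other settings, from −0.27 to −0.23. Its exons share 70 bases with DLD on the opposite strand, which also fell (−0.31, edgeR adjusted p = 0.00150).

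LAMB2 codes for β2, the chain of synaptic and kidney filter laminins (ENSG00000172037, chromosome 3, 49121114 to 49133118, minus strand). It was at 245, 273, 258 and 259 CPM in shControl replicates 1 to 4 and at 263, 275, 220 and 258 CPM in shSmurf1 replicates 1 to 4. The groups overlapped, with shSmurf1 replicate 3 the lowest of the 8 libraries. LAMB2 did not pass (−0.027 ± 0.061, edgeR adjusted p = 0.800; 95% interval −0.15 to 0.10). It lay at 0.038 without shSmurf1 replicate 3 and, at a GC content of 60.3%, passed as lower once each library's GC trend was removed (−0.11, edgeR adjusted p = 0.0335).

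LAMC1 codes for γ1, the γ chain that most laminins share (ENSG00000135862, chromosome 1, 183023460 to 183145592, plus strand). It was at 363, 375, 371 and 363 CPM in shControl replicates 1 to 4 and at 359, 370, 348 and 373 CPM in shSmurf1 replicates 1 to 4. The groups overlapped, with shSmurf1 replicates 1 and 3 below every shControl library and the other two within the shControl range. LAMC1 did not pass (−0.022 ± 0.044, edgeR adjusted p = 0.777), and the 95% interval of its log2 fold change was −0.11 to 0.07. Of other chain genes, LAMB4 and LAMC3 had at most 5 and 15 counts in a library and were not tested.

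**Figure D2:**
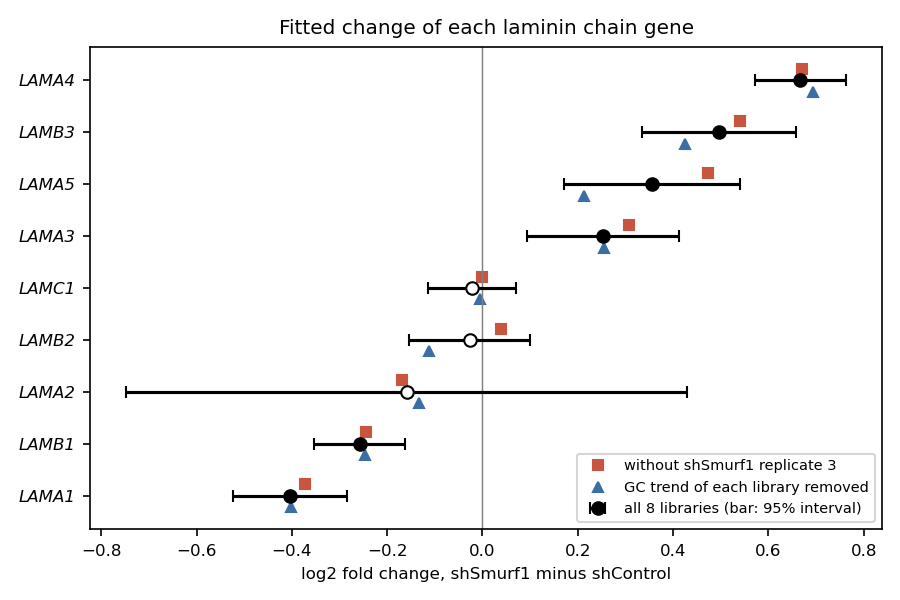
Log2 fold change of each laminin chain gene, shSmurf1 minus shControl (horizontal axis), with circles and 95% intervals for the fit of all 8 libraries (filled where the gene passed), squares for the fit without shSmurf1 replicate 3 and triangles for the fit after each library's GC trend was taken out. LAMA4 hardly differs between the 3 fits, LAMA5 ranges from 0.21 to 0.47, and LAMB2 lies on either side of 0.

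Levels of different genes were compared per exon length, as RPKM (CPM divided by the length of the gene's exons in kilobases). In shControl the order was LAMC1 (43.8 ± 0.718 RPKM), LAMB1 (42.4 ± 1.28), LAMB2 (37.7 ± 1.65), LAMB3 (17.2 ± 1.10), LAMA4 (11.9 ± 0.203), LAMA5 (10.9 ± 0.534), LAMA1 (8.21 ± 0.480), LAMA3 (2.54 ± 0.153) and LAMA2 (0.139 ± 0.0287; SD, n = 4 each). Of neighbours in that order, LAMC1 and LAMB1 overlapped between libraries and the rest did not. In shSmurf1, LAMC1 was at 43.1 ± 1.33 RPKM, LAMB2 at 37.0 ± 3.45 and LAMB1 at 35.5 ± 1.01, with LAMB2 and LAMB1 overlapping, and LAMA4, at 18.8 ± 0.0702 RPKM, lay above every library of LAMA5, at 13.9 ± 2.35 RPKM. The order depends on the length used. With the longest transcript in place of the summed exons, LAMB1 stood first in shControl (59.9 RPKM, LAMC1 46.6, LAMB2 45.6) and LAMA4, at 21.0 RPKM, stood above LAMB3, at 18.7 RPKM.

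The make-up of the α chain transcripts shifted from LAMA1 towards LAMA4. Of the RPKM summed over the 5 α chain genes, LAMA1 held 23.4 to 25.0% in the shControl libraries and 14.2 to 15.4% in the shSmurf1 libraries. LAMA4 held 34.5 to 36.7% and 42.6 to 49.7%, the highest share being that of shSmurf1 replicate 3. LAMA5 held 31.2 to 32.9% in shControl and 34.6 to 34.7% in 3 shSmurf1 libraries, but 27.5% in shSmurf1 replicate 3, and LAMA3 held 7.18 to 7.81% and 6.996 to 7.63%. The shares of LAMA1 and LAMA4 thus did not overlap between groups, whereas those of LAMA5 and LAMA3 did. A share also moves with the other genes of its sum. The summed α chain RPKM averaged 33.6 in shControl and 42.1 in shSmurf1, so the LAMA1 share fell further than LAMA1 itself, at 75.5% of control. These shares are a description of the values above and were given no test.

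Within the β class, LAMB1 held 42.6 to 44.2% of the summed RPKM in shControl and 34.7 to 39.0% in shSmurf1, LAMB3 15.9 to 18.9% and 21.5 to 27.0%, and LAMB2 38.0 to 39.9% and 36.1 to 41.0%. The α chain genes summed to 32.6 to 34.9 RPKM in shControl and 37.8 to 44.3 RPKM in shSmurf1, without overlap, and the β sums overlapped between groups. Relative to LAMC1, the summed α chain RPKM was 0.755 to 0.783 in shControl and 0.912 to 1.01 in shSmurf1, and the summed β chain RPKM was 2.18 to 2.26 and 2.14 to 2.34.

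**Figure D3:**
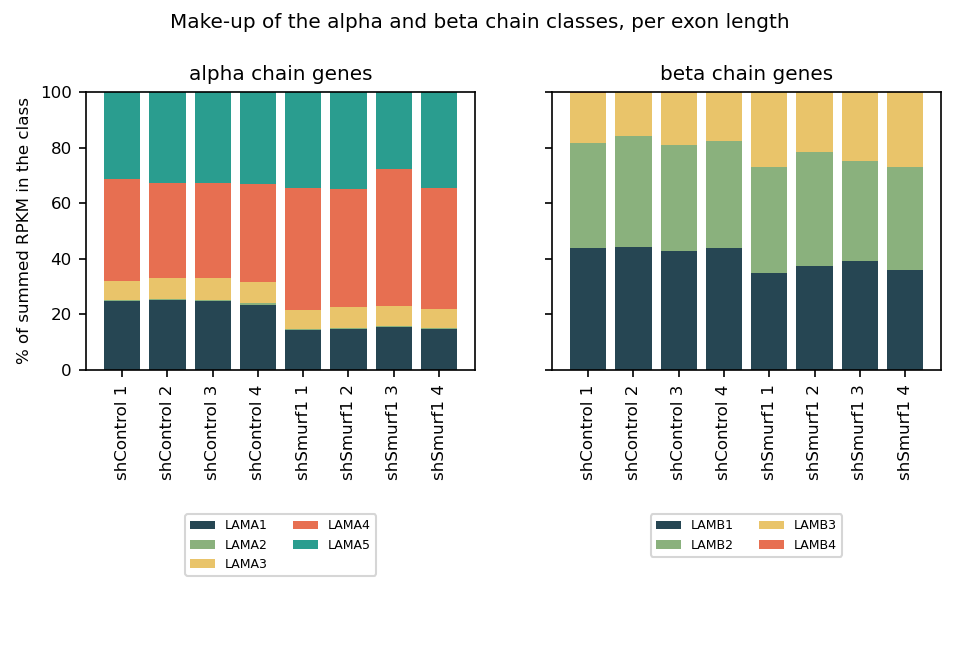
Share of each gene in the RPKM summed over its chain class (vertical axis, percent), one bar for each of the 8 libraries. In the α class LAMA1 takes 24.4% on average in shControl and 14.8% in shSmurf1 while LAMA4 goes from 35.3% to 44.9%, and in the β class LAMB3 goes from 17.7% to 25.0%.

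The laminin genes lie on 6 chromosomes, and each was set beside the 20 nearest tested protein-coding genes, 10 on each side. LAMB1 lies among genes that were lower in shSmurf1: its neighbours, over 6.28 Mb of chromosome 7, had a median log2 fold change of −0.32. Of these 20 neighbours 11 were lower and 1 higher, beside 12.2% and 10.3% of all genes tested. LAMB1 lay 0.07 above their median. The 20 neighbours of LAMA4 had a median of 0.01, with 2 higher and 1 lower, beside the same shares. LAMA4 lay 0.66 above that median. LAMB3, LAMA3 and LAMA5 lay 0.48, 0.35 and 0.30 above the medians of their neighbours, which were 0.02, −0.10 and 0.06, and LAMA1 lay 0.32 below the median of its neighbours (−0.09). The part of chromosomal position in the value of LAMB1 was not tested.

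**Figure D4:**
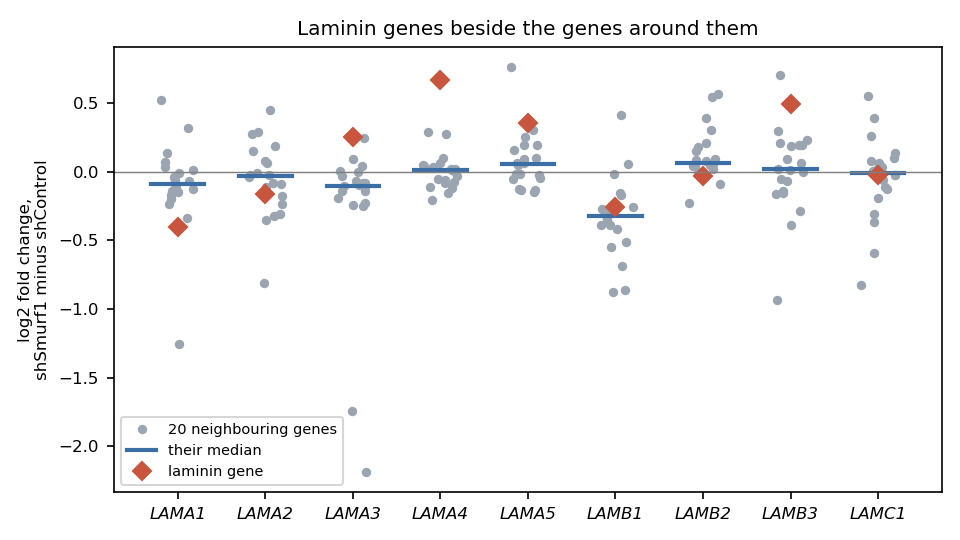
Log2 fold change, shSmurf1 minus shControl (vertical axis), of each laminin chain gene (diamond), of its 20 nearest tested protein-coding genes (grey points) and of their median (line). LAMA4 stands above all its neighbours, and LAMB1 lies within a group of neighbours with a median of −0.32.

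Over the 8 libraries, the log2 CPM of LAMA4 followed that of AMOT, an angiomotin (Pearson r = 0.998), TGM2, a transglutaminase (0.997), and COLEC12, a scavenger receptor (0.997), the 3 closest of 11219 protein-coding genes whose average log2 CPM reached 2. Those closest to LAMA5 were PKP3, HGS and PLXNB2 (0.992, 0.991 and 0.990), and those closest to LAMA1 were TEAD1, LPIN1 and RGMB (0.987, 0.986 and 0.986). For LAMB1 they were EPB41L4B, VPS50 and NOTCH2 (0.991, 0.988 and 0.987), for LAMB3 ALDH1A3, HOXB8 and EFNA1 (0.986, 0.980 and 0.973), and for LAMA3 PCSK7, GPR153 and TSPAN9 (0.987, 0.987 and 0.986). All points share the 2 groups and the same 8 libraries, so a high r mostly repeats the group difference. Taking each library's deviation from its group mean, LAMB2 and LAMA5, the 2 laminin genes with the highest GC content, had an r of 0.96. LAMC1 and LAMA1 had 0.90, and LAMA3 and LAMB3, the partner chains, −0.07. LAMB2 and LAMA3, at 60.3% and 50.7% GC, had 0.89, and LAMB3, at 58.9% GC, had 0.31 with LAMA5. The part of GC content in these values was not tested.

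The partners of laminin in the basement membrane also moved in both directions. Of 19 tested partner genes, 7 rose and 4 fell, beside 10.3% and 12.2% of all genes tested, with a median log2 fold change of 0.11. TINAGL1, a matrix protein related to tubulointerstitial nephritis antigen, fell from 9.24 ± 0.462 to 2.07 ± 0.201 CPM (SD, n = 4 each; log2 fold change −2.16 ± 0.15 SE, edgeR adjusted p = 4.08e-09), and SMOC1, a calcium-binding basement membrane glycoprotein, fell by 1.84 on the log2 scale. COL15A1, a collagen at the outer face of basement membranes, fell at under 1 CPM in every library (−1.62 ± 0.52) and did not pass without any 1 of 5 libraries (shControl replicate 1, 2 or 3, or shSmurf1 replicate 2 or 4; edgeR adjusted p from 0.0747 to 0.0833). COL4A5, a type IV collagen chain of the lens capsule and kidney, rose from 35.9 ± 1.03 to 58.3 ± 4.48 CPM (0.70 ± 0.068). COL4A2 and COL18A1, chains of collagens IV and XVIII, averaged 652 and 372 CPM in shControl libraries. Neither passed with all libraries, but both passed as higher without shSmurf1 replicate 3 (edgeR adjusted p = 0.00309 and 4.96e-05), and both lost the call when the GC trend was removed as well (adjusted p = 0.618 and 0.973). There were 10 higher partners without shSmurf1 replicate 3, and 4 without shControl replicate 4 or shSmurf1 replicate 2.

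Among 15 tested laminin receptors, 6 rose and 5 fell, beside 10.3% and 12.2% of all genes tested (median 0.08). ITGA7, the α7 integrin chain best known in muscle, rose from 8.21 ± 1.66 to 15.1 ± 2.86 CPM, and ITGB4, the β4 chain that links hemidesmosomal laminin to keratins, from 30.8 ± 1.42 to 50.8 ± 4.88 CPM (SD, n = 4 each; log2 fold changes 0.87 ± 0.15 and 0.72 ± 0.076 SE). MCAM, an adhesion molecule that binds laminins with the α4 chain, rose from 50.98 ± 1.18 to 73.4 ± 5.74 CPM (0.53 ± 0.063, edgeR adjusted p = 5.36e-06), and ITGA1 rose by 0.45. ITGA3 and ITGA6, the main laminin-binding α integrins of epithelia, did not pass (−0.048 ± 0.053 and −0.039 ± 0.051), although ITGA3 passed as lower with the GC trend removed (−0.14, edgeR adjusted p = 0.000997). The 5 receptors that fell are named here after their values were seen. ITGB1, the β1 chain that pairs with ITGA1, ITGA2, ITGA3, ITGA6 and ITGA7, fell from 1521 ± 32.4 to 1322 ± 99.6 CPM (−0.20 ± 0.049, edgeR adjusted p = 0.00537), and its groups did not overlap. The syndecans SDC4 and SDC2, heparan sulfate proteoglycans of the cell surface, fell by 0.36 and 0.31. ITGA2, the α2 integrin chain, and RPSA, a ribosomal protein also described as a laminin receptor, fell by 0.20 and 0.12 (edgeR adjusted p = 0.0342 and 0.0479). ITGA2 did not pass in 8 of the 18 other settings, among them those that left out 1 of shControl replicates 1, 3 and 4 and shSmurf1 replicates 2 and 4 (edgeR adjusted p from 0.0841 to 0.128). RPSA did not pass in 12, among them those that left out any 1 shControl library or 1 of shSmurf1 replicates 1 and 2 (edgeR adjusted p from 0.0505 to 0.147). Receptors counted as lower were 3 with library totals only and without shControl replicate 1, 3 or 4 or shSmurf1 replicate 2.

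Of 16 genes for the sugar chain by which dystroglycan holds laminin, 4 rose and 1 fell (median 0.13), so that 5 of 16 passed, a share near those of all genes tested (22.5%) and of the well-expressed genes above (30.3%). DPM3 and DPM2, subunits of the dolichol-phosphate mannose synthase, rose by 0.96 and 0.23, and LARGE2, which extends the laminin-binding sugar, rose from 5.59 ± 0.960 to 8.60 ± 0.400 CPM (SD, n = 4 each). POMGNT1 fell (−0.29 ± 0.058), and POMT1 and DPM1 did not pass (0.17 and 0.15). POMT1 passed without shSmurf1 replicate 3 (edgeR adjusted p = 0.0288) and DPM1 with the GC trend removed (0.23, edgeR adjusted p = 0.00352), where 2 of these genes were lower. Of 7 tested proteases that cut laminin chains 2 passed, also near those shares: BMP1 (0.35 ± 0.066) and MMP2 (0.32 ± 0.079) rose, and MMP14 (−0.068) and PLAU (0.067) did not pass. In shSmurf1 replicate 3 MMP2 was at 39.7 CPM, within the shControl range of 37.7 to 39.9 CPM. The other shSmurf1 libraries were at 49.9 to 52.8 CPM. BMP1 and MMP2 passed in all 18 other settings, with log2 fold changes from 0.25 to 0.40 and from 0.26 to 0.41. BMP1 lay at 0.26 with the GC trend removed. With the GC trend removed 3 proteases were higher and 1, MMP14, was lower (edgeR adjusted p = 0.00960). Of 5 netrin genes, whose ends resemble laminin short arms, 0 passed with all libraries in edgeR, DESeq2 or limma-voom, and 1, NTNG1, had an unadjusted edgeR p under 0.05. NTN4, which binds laminin γ1, lay at −0.12 ± 0.065 and NTNG2 at 0.10 ± 0.13. There was 1 lower netrin gene without shControl replicate 3, and without shSmurf1 replicate 3 there were 2, NTN4 among them (−0.17, edgeR adjusted p = 0.0140).

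**Figure D5:**
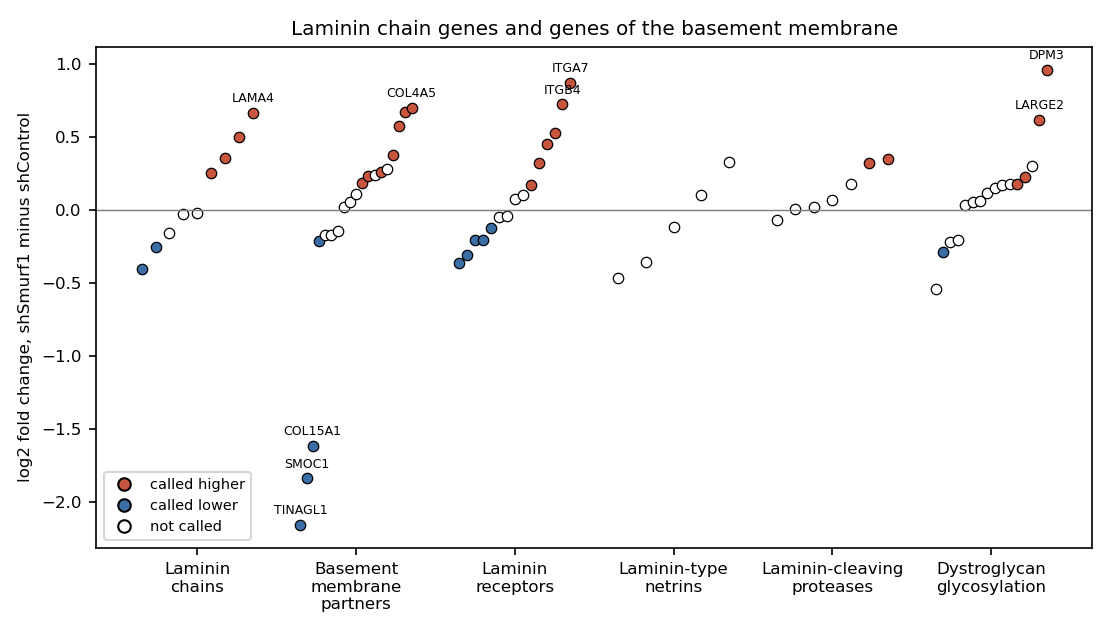
Log2 fold change, shSmurf1 minus shControl (vertical axis), of the tested genes of 6 lists, 1 point per gene, red where called higher, blue where called lower and white where not called (edgeR adjusted p under 0.05). The largest falls are TINAGL1, SMOC1 and COL15A1 among the basement membrane partners, and in the laminin, partner and receptor lists genes are called in both directions.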

How the data were processed

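RNA-seq gene counts from 4 shControl and 4 shSmurf1 libraries were analysed. The file holds whole-number gene counts as the authors deposited them, without normalization. Per the submitters' processing notes, the tools were featureCounts (version 1.5.0-p3), HISAT2 (version 2.0.5), fastp and CASAVA. The genome build is not given in the sources used here. All 58735 gene identifiers were found in GENCODE release 29 (GRCh38), which gave symbols, coordinates, exon lengths and GC content (longest transcript). Promoter sequences are from RefSeq (GRCh38.p14).

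Genes were kept by filterByExpr (minimum count 10) and scaled by TMM. Groups were compared with edgeR version 4.0.16 in R version 4.3.3 (glmQLFit, glmQLFTest), two-sided, without covariates, with Benjamini-Hochberg adjustment over all 15647 genes tested. The fit was tested on simulated data. CPM and RPKM use TMM-scaled totals. Standard errors are the log2 fold change over the root of F. Other settings used DESeq2 version 1.42.0, limma-voom (limma version 3.58.1), other scalings and filters, the replicate number as a block, removal of each library's trend with GC content (lowess, span 0.3), and each library left out. The fit with the GC trend removed and without shSmurf1 replicate 3 was added after seeing the data. The members and lists were chosen with earlier results of these data known. From each list of partner genes the text names up to 4 genes past the test with the largest change and up to 2 others with the highest expression, and for each called member the 3 genes of most similar pattern. Some genes that belong to these lists are not reported here.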

Additional observations from a re-analysis of the deposited data

Results flagged for a closer look

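Of 78 groups of 4 libraries examined, for the laminin genes and the other genes named, 4 had a library set far apart from the other three by Dixon's test. Chance gives about 1 in 20. LAMA5 in shSmurf1 replicate 3 was at 148 CPM, with the other shSmurf1 libraries at 211 to 220 CPM. COL18A1 in the same library was at 298 CPM, with the others at 427 to 446 CPM. POMGNT1 in shControl replicate 3 was at 87.5 CPM, with the others at 91.6 to 92.1 CPM. ITGA2 in shControl replicate 2 was at 71.7 CPM, with the others at 78.2 to 79.4 CPM.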

How the results depend on the processing

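Under the 18 other settings the number of laminin genes called higher was 4, except 3 without shControl replicate 1, shControl replicate 4 or shSmurf1 replicate 2, and the number called lower was 2, or 3 in the fits with the GC trend removed. Of all genes, 3527 were called with all libraries, 5348 without shSmurf1 replicate 3, and 2763 to 5348 with 1 library left out. With the replicate number as a block, 3192 genes were called, and the laminin counts were 4 higher and 2 lower. The replicate number is not stated to mark a shared culture or day, so the main fit did not pair the samples by it. Deviations of same-numbered libraries correlated at −0.067 to 0.032, and 1 of the 4 shControl libraries correlated best with its own number.

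Signs turned only for genes that did not pass with all libraries. Without shSmurf1 replicate 3, LAMB2 lay at 0.038 and ITGA3 at 0.011 (−0.068 to 0.038 and −0.086 to 0.011 with any 1 library left out). With the GC trend removed, alone, with the replicate block, and without shSmurf1 replicate 3, COL18A1 lay at −0.037, −0.038 and −0.002, and COL4A2 at −0.050, −0.051 and −0.026. ITGA6 lay at 0.006 in the first and second of these, and LAMC1 at 0.018 and NTNG2 at −0.009 in the third. The causes were not tested. Depth limits LAMA2, at 16 to 29 counts per library.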
